A study of Mus musculus with 11 samples.

Results

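The 10 heat shock protein genes described here were Hspa1a, Hspa1b, Hspa8, Hsp90aa1, Hsph1, Dnajb1, Hspb1, Hspb7, Cryab and Bag3. They are cytosolic inducible and muscle chaperones, with the constitutive Hspa8 among them. They were chosen by symbol, with earlier results of these data known, as 10 of 55421 gene rows of the count table. All 10 passed the filter on low counts in every comparison. Poly(A) RNA was sequenced from hearts of female C57BL/6J mice aged 8 weeks, in 3 groups and 11 libraries. The DMSO group (n = 4, libraries A105, A127, A128 and A129) had a myocardial infarction (MI) and received the solvent DMSO. The A10i group (n = 4, libraries A116, A117, A119 and A120) had an MI and received GI254023X, an inhibitor of the membrane protease ADAM10, given in DMSO at 100 mg/kg. The Sham group (n = 3, libraries S1, S2 and S3) is labelled with DMSO and no infarction. MI was made by permanent ligation of the left anterior descending coronary artery (LAD), without reperfusion, and the infarcted hearts were taken on day 3. Solvent or inhibitor was delivered by an osmotic minipump under the skin, so it reached the whole animal and not the heart alone. The labels name the infarct border zone after MI and healthy tissue in Sham, and the study describes the infarct and its border as excised together, so the site sampled and the infarct cannot be told apart. In such bulk tissue, fewer cells of a type and less RNA per cell cannot be told apart either. The study counts as many mice in each group as there are libraries, while the labels name no animal for a library, so the p-values measure the spread between these libraries.

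Heat shock proteins bind unfolded or stressed proteins and keep them from aggregating. HSP70 proteins work in cycles of ATP use, which J-domain proteins start and nucleotide exchange factors end, and they pass some clients on to HSP90. Small heat shock proteins hold unfolding proteins without ATP, and in cardiac muscle they protect desmin, titin and filamin at the Z-disc. Heat shock factors drive many of these genes through the heat shock element, a repeat of short units in their promoters. In the heart, ischemia is a known inducer of HSP70, and mutations in CRYAB and BAG3 cause cardiomyopathy.

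Depth was similar in all libraries, with 21702623 to 29511768 counts each. Transcripts of the mitochondrial genome held 21.5 to 22.2% of the counts in Sham, 14.8 to 18.6% in DMSO and 15.7 to 17.9% in A10i. The 10 cardiomyocyte markers were detected in every library, with a summed level of 100000 to 102000 CPM (counts scaled to library size) in Sham, 46300 to 69200 CPM in DMSO and 57600 to 79300 CPM in A10i. Of these markers, 5 of 10 were lower in DMSO than in Sham and 3 of 10 were lower in A10i than in Sham. Neutrophil markers summed to 1.74 to 3.05 CPM in Sham, where up to 3 of the 8 genes were at 0 in a library, to 79 to 159 CPM in DMSO and to 13.7 to 50.9 CPM in A10i. The immediate early genes, which answer acute stress and tissue handling, had a mean log2 CPM of 2.49 to 2.73 in Sham, 4.48 to 4.84 in DMSO and 3.78 to 4.35 in A10i. They were higher than in Sham for 7 of 8 genes in both infarcted groups. Macrophage markers were higher than in Sham for 6 of 8 genes in DMSO and 8 of 8 in A10i, and fibroblast markers for 3 of 7 and 6 of 7. The part of cell composition and of these stress genes in the changes described next was not tested.

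The sequence of the heat shock element was looked for first, because heat shock factors drive many of these genes through it. It was searched as GAANNTTCNNGAA and its reverse complement TTCNNGAANNTTC, that is 3 alternating units 2 bases apart on both strands, in RefSeq promoter windows (GRCm38.p6) of 250 bases before to 50 bases after a start site. Windows were held for 7 of the 10 members, and none for Hspa8, Hsp90aa1 and Cryab. The exact element was present in 198 of 32851 windows, or 0.603%, and 1 member had it, Hsph1. In Hsph1 the match began 36 bases after 1 RefSeq start and 15 bases after another, on the minus strand of chromosome 5. Allowing 1 of the 9 unit letters to differ, a search added after the exact one, gave a match in 7.22% of all windows and in 4 members, Hspa1a, Hspa1b, Hspb1 and Hsph1. Matches of Hspa1a and Hspa1b began 114 bases before the start, and that of Hspb1 lay at a similar distance, as its coordinates show. The windows of Dnajb1, Hspb7 and Bag3 had no match of either kind. A match is a description of these letters and not a site of binding. The lack of a match to this strict pattern in a short window does not show that a gene lacks the element. The stretches are printed 5′ to 3′ on the strand of the gene, with the unit letters in capitals, to show how alike the promoters of the paralogs are and where the members with a match differ.
Hspa1a, chr17:34972223-34972300: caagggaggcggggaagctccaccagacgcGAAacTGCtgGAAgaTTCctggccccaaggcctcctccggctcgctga
Hspa1b, chr17:34959305-34959382: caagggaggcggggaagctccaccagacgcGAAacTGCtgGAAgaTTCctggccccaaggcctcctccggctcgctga
Hspb1, chr5:135887772-135887844: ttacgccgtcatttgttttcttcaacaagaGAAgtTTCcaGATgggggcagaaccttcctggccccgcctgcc
Hsph1, before the RefSeq start, chr5:149636346-149636375: gaatctTTCtcGAAggCTCgaGAAgaagga
Hsph1, after the RefSeq start, chr5:149636282-149636306: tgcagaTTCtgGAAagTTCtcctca
The stretches of Hspa1a and Hspa1b were the same letter by letter, and their windows matched at 247 of the 250 bases before the start. Both Hsph1 stretches lay within the gene as the count table bounds it.

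Infarction under DMSO was compared with Sham to describe the chaperones after ischemic injury. Of the 10 members, 5 were higher and 1 was lower at an adjusted p under 0.01 (edgeR quasi-likelihood test, Benjamini-Hochberg over 17117 genes), and 4 did not pass. Among all genes tested, 12.9% were higher and 9.6% were lower. The inducible HSP70 genes Hspa1a and Hspa1b rose most, with smaller rises of Hspb1, Dnajb1 and Hsp90aa1, while the exchange factor gene Hsph1 fell. The median log2 fold change was 0.61 over the 10 members and 0.0021 over all genes. In the same comparison under A10i, 4 members were higher and none was lower at this threshold, beside 13.7% higher and 9.11% lower among 16971 genes. The median log2 fold change there was 0.29 over the members and -0.0054 over all genes. Both comparisons used the same 3 Sham libraries. How many of all genes had no overlap with Sham was not counted. A lack of overlap with Sham below thus describes a gene's levels alone.

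**Figure D1:**
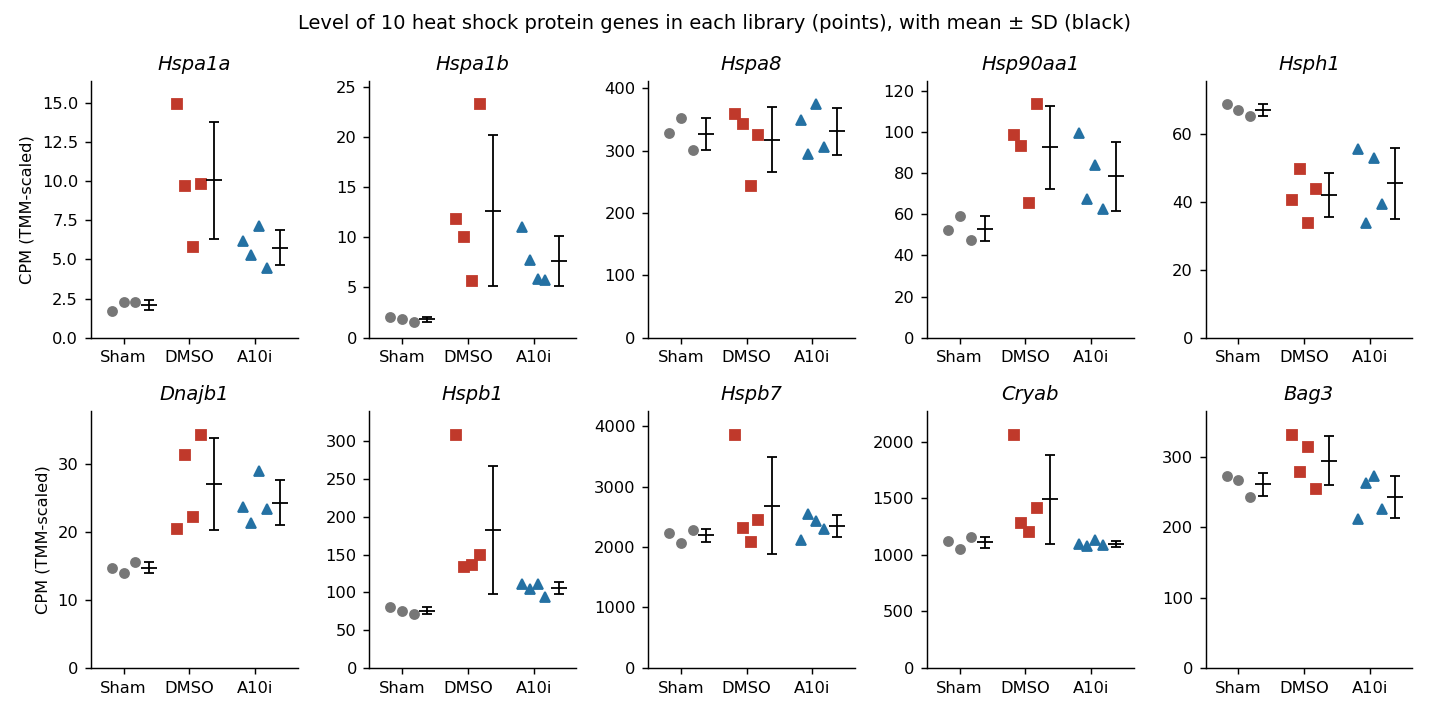
Level of each of the 10 genes in CPM on TMM-scaled library sizes (vertical axes start at 0) in the 3 Sham, 4 DMSO and 4 A10i libraries, 1 point per library, with the mean ± SD in black. Hspa1a and Hspa1b have no overlap between Sham and either infarcted group, Hsph1 is lower in every infarcted library than in every Sham library, and library A105 is the highest DMSO point for Hspa1a, Hspa8, Hspb1, Hspb7, Cryab and Bag3.

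Hspa1a and Hspa1b encode the stress-inducible HSP70, in neighbouring genes of chromosome 17 on the minus strand (Hspa1a at chr17:34969190-34972156 and Hspa1b at chr17:34956436-34959238, mm10), 9951 bases apart. Hspa1a had 1.70, 2.26 and 2.25 CPM in Sham, 14.9, 9.68, 5.77 and 9.80 CPM in DMSO (A105, A127, A128, A129) and 6.17, 5.25, 7.12 and 4.48 CPM in A10i (A116, A117, A119, A120). Every infarcted library was above every Sham library, and the ranges of DMSO and A10i overlapped. The rise of Hspa1a over Sham was 2.26 on the log2 scale in DMSO (SE 0.311, adjusted p = 0.000801) and 1.47 in A10i (SE 0.2, adjusted p = 0.000591). This call was kept when any 1 library was left out, with an adjusted p of 0.00666 or less under every alternative in DMSO. Counts behind these levels were small in Sham, 39 to 61 reads per library, and 100 to 352 in the infarcted libraries.

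Hspa1b had 2.09, 1.82 and 1.61 CPM in Sham, 11.8, 10.1, 5.602 and 23.2 CPM in DMSO, and 11.1, 7.72, 5.88 and 5.78 CPM in A10i. Again no infarcted library reached down to Sham, and the highest value was in DMSO library A129 rather than in A105. The rise was 2.77 on the log2 scale in DMSO (SE 0.472, adjusted p = 0.00235) and 2.06 in A10i (SE 0.257, adjusted p = 0.000453). In DMSO the call was lost without S1, S2 or S3 (adjusted p = 0.0143 to 0.0158), with limma-voom (0.0103) and without the filter on low counts (0.0261). Its fold change over Sham, 6.84-fold in DMSO and 4.16-fold in A10i, was the largest of the members. Under the alternatives its log2 fold change ran from 2.30 to 3.03 in DMSO.

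The paralogs are so alike that reads cannot always be assigned to 1 of them. Of the windows of 100 bases in the Hspa1a transcript, 47.1% occurred in Hspa1b, and 49.9% of those of Hspa1b occurred in Hspa1a. Since the authors counted uniquely aligned reads, the shared sequence may add few reads to either gene. The reads were pairs, so a pair with only 1 end in shared sequence may still align to 1 gene. How far the levels rest on the remaining sequence was not tested. With both summed, the level was 3.79 to 4.08 CPM in Sham, 11.4 to 33.0 CPM in DMSO and 10.3 to 17.2 CPM in A10i. The summed rise was 2.52 on the log2 scale in DMSO (SE 0.345, adjusted p = 0.000871) and 1.78 in A10i (SE 0.171, adjusted p = 0.000157). The share of Hspa1b in the summed counts differed between libraries of 1 group. It was 44.1% in DMSO library A105 (95% Wilson interval 40.3 to 48%) and 70.3% in A129 (67.2 to 73.3%), intervals that cover counting error only. Over the other 9 libraries it ran from 41.7% in S3 to 64.2% in A116.

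Hspa8 encodes HSC70, the constitutive member of the family, which folds new proteins in unstressed cells (chr9:40800984-40810087). It stood at 301 to 352 CPM in Sham, 243 to 360 CPM in DMSO and 294 to 374 CPM in A10i. The 3 ranges overlapped. Its difference from Sham was -0.05 on the log2 scale in DMSO (95% interval -0.36 to 0.26, adjusted p = 0.792) and 0.02 in A10i (-0.21 to 0.25, adjusted p = 0.897), signs that turned with the scaling or with 1 library left out. At 327 CPM in Sham against 2.07 CPM for Hspa1a, or 76.0 against 0.698 CPM per kilobase of exon, HSC70 was the main cytosolic HSP70 transcript in Sham, and its level per kilobase was still above that of both inducible genes in every infarcted library. Of the windows of 100 bases in its transcript, 32.1% occurred elsewhere, mostly in the gene Gm26825.

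Hsph1, which encodes HSP105, an exchange factor that reopens HSP70 (chr5:149614287-149636376), had 68.6, 66.8 and 65.1 CPM in Sham. In DMSO it had 40.6, 49.7, 33.9 and 43.7 CPM, and in A10i 55.6, 33.8, 52.8 and 39.4 CPM. All infarcted libraries were below all Sham libraries, so Hsph1 moved opposite to Hspa1a and Hspa1b on this scale. It fell by 0.68 on the log2 scale in DMSO (SE 0.116, adjusted p = 0.00183). In A10i the difference was -0.55 (SE 0.157, adjusted p = 0.0218), which missed the threshold here and passed it with DESeq2 (adjusted p = 0.00305). The DMSO call was lost without S1 or S2 (adjusted p = 0.0114 and 0.0106) and with library size alone (0.0198), and the direction held in each case.

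Dnajb1 encodes HSP40, the J-domain protein that hands clients to HSP70 (chr8:83608193-83612653). It had 14.7, 14.0 and 15.6 CPM in Sham, 20.4, 31.4, 22.3 and 34.4 CPM in DMSO, and 23.6, 21.3, 29.0 and 23.4 CPM in A10i. Infarcted libraries were all above Sham, with A127 and A129 the highest. The rise was 0.87 on the log2 scale in DMSO (SE 0.186, adjusted p = 0.0059) and 0.72 in A10i (SE 0.107, adjusted p = 0.000865). Leaving out S1, S2, S3 or A127 ended the DMSO call (adjusted p = 0.0155 to 0.0301).

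Hsp90aa1 encodes HSP90 alpha, the inducible form of HSP90 (chr12:110690605-110702728). Its level was 52.4, 59.4 and 47.4 CPM in Sham, 98.3, 93.1, 65.2 and 113 CPM in DMSO, and 99.4, 67.6, 84.1 and 62.8 CPM in A10i. The lowest infarcted library, A120, was just above the highest Sham library, S2. It rose by 0.79 on the log2 scale in DMSO (SE 0.176, adjusted p = 0.00734). The A10i difference of 0.57 (SE 0.159, adjusted p = 0.0204) did not pass. The DMSO call rested on all libraries but A128: leaving out any of the other 6 gave an adjusted p of 0.0113 to 0.0375. Of the windows of 100 bases in its transcript, 39.6% occurred in the pseudogene Gm12346, listed at 1313 to 1790 counts in Sham and 2060 to 2828 in DMSO.

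**Figure D2:**
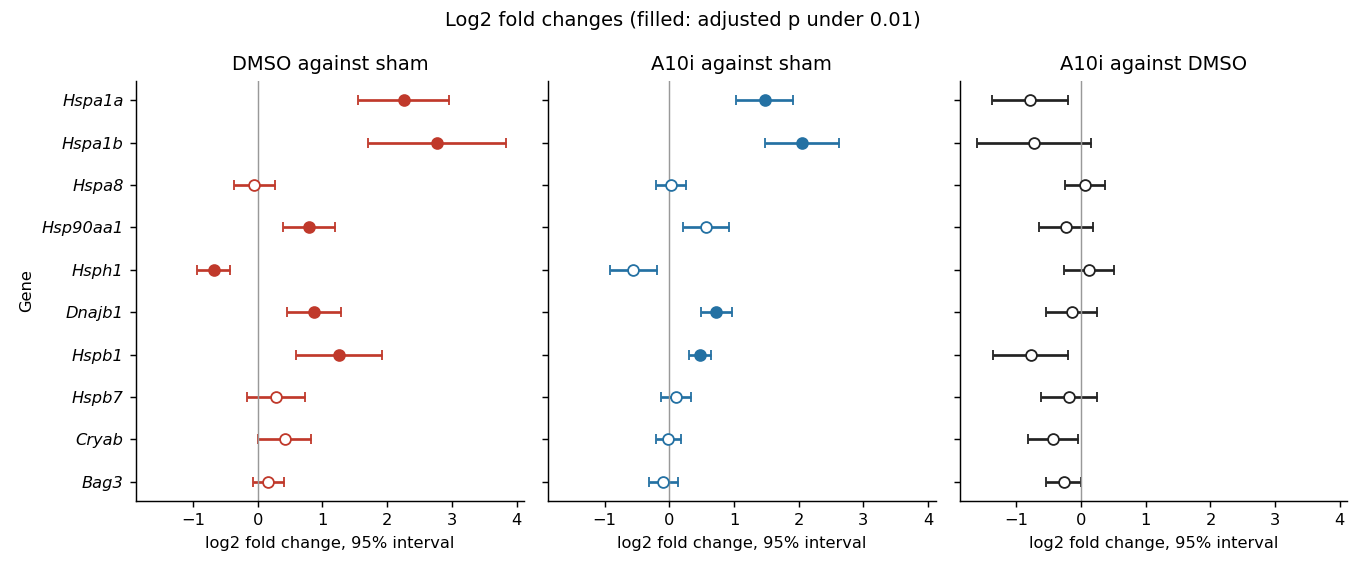
Log2 fold change of each gene (horizontal axis, points with 95% intervals) in DMSO against Sham, A10i against Sham and A10i against DMSO, filled where the adjusted p was under 0.01. Filled points are 6 in the first panel (Hspa1a, Hspa1b, Hsp90aa1, Dnajb1 and Hspb1 higher, Hsph1 lower), 4 in the second and 0 in the third.

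The small heat shock protein gene Hspb1 encodes HSP25, which binds actin and unfolding proteins (chr5:135887919-135889563). It had 80.6, 75.7 and 70.9 CPM in Sham, 309, 134, 136 and 150 CPM in DMSO, and 111, 104, 112 and 94.5 CPM in A10i. No 2 groups overlapped, and A105 stood apart from the other DMSO libraries. Hspb1 rose by 1.26 on the log2 scale in DMSO (SE 0.29, adjusted p = 0.00917) and by 0.48 in A10i (SE 0.077, adjusted p = 0.00122). Without A105 the DMSO rise was 0.86 (adjusted p = 0.000375). The DMSO call was lost without S1, S2, S3, A128 or A129 (adjusted p = 0.011 to 0.0442) and without the filter (0.0731). The A10i call was lost without S3 (0.0104) and when all 11 libraries shared 1 fit (0.174).

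A processed pseudogene, Hsp25-ps1 on chromosome 13, shares 42.7% of the windows of 100 bases in the Hspb1 transcript. It was listed at 1519 to 1924 counts in Sham, 3500 to 6747 in DMSO and 1933 to 2594 in A10i, close to the 1762 to 2039, 3835 to 7302 and 2111 to 2803 counts of Hspb1 itself. Its log2 fold change was 1.24 in DMSO (SE 0.308, adjusted p = 0.0125) and 0.50 in A10i (SE 0.0892, adjusted p = 0.00203). Whether these reads came from 1 locus or both cannot be told apart from the counts. With the pair summed, an alternative added after these counts were seen, Hspb1 had a log2 fold change of 1.25 in DMSO (adjusted p = 0.0108) and 0.49 in A10i (adjusted p = 0.00203).

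Cryab encodes alpha B-crystallin, a small heat shock protein that binds desmin and titin (chr9:50751325-50756636). It had 1122, 1054 and 1154 CPM in Sham, 2064, 1285, 1200 and 1418 CPM in DMSO, and 1096, 1077, 1130 and 1085 CPM in A10i. The DMSO libraries were all above both other groups, which overlapped each other, and A105 was again the highest. The difference from Sham was 0.42 on the log2 scale in DMSO (SE 0.182, adjusted p = 0.0942) and -0.01 in A10i (SE 0.0868, adjusted p = 0.914), and neither passed. Cryab overlaps its neighbour Hspb2 by 1030 bases on the opposite strand. The libraries were made with strand kept, but the strand setting of the counting is not given in the sources used here. Hspb2, a small heat shock protein gene of muscle, had 1207 to 1398 counts in Sham, 1676 to 2323 in DMSO and 1223 to 1705 in A10i, far fewer than the 24239 to 48770 counts of Cryab.

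Hspb7 and Bag3, the remaining muscle chaperones, did not pass in either comparison with Sham. Hspb7 encodes a small heat shock protein of heart and skeletal muscle (chr4:141420779-141425311). It had 2072 to 2276 CPM in Sham, 2083 to 3859 CPM in DMSO and 2114 to 2545 CPM in A10i. The ranges overlapped, and the DMSO range without A105 ended at 2451 CPM. Its log2 difference from Sham was 0.28 in DMSO (95% interval -0.17 to 0.73, adjusted p = 0.293), which became 0.04 without A105, and 0.10 in A10i (-0.13 to 0.33, adjusted p = 0.467). Bag3 encodes the cochaperone that joins HSP70 to small heat shock proteins and sends damaged Z-disc proteins to autophagy (chr7:128523616-128546981). Its level was 243 to 273 CPM in Sham, 255 to 332 CPM in DMSO and 211 to 274 CPM in A10i, with a log2 difference from Sham of 0.17 in DMSO (-0.08 to 0.41, adjusted p = 0.251) and -0.10 in A10i (-0.32 to 0.13, adjusted p = 0.472). The DMSO value of Bag3 passed with library size alone (0.37, adjusted p = 0.00734), a scaling that moved the median of all genes to 0.21.

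Per kilobase of exon, which adjusts for gene length, the order of the levels was led by the muscle small heat shock proteins. The length counts all exons, while only uniquely aligned reads were counted. It exceeded the longest transcript for some members, with 1479 against 1117 bases for Cryab, 7266 against 4764 for Hsph1 and 4301 against 3158 for Hspa8. For Hspb7 both were 2769 bases. Genes with the longer exon length may read low on this scale. The order of Cryab and Hspb7, and of Dnajb1 and Hsph1, is thus uncertain. Windows shared with other genes were 56.5% in Hspa1a, 49.9% in Hspa1b, 47.5% in Hsp90aa1, 42.7% in Hspb1 and 32.1% in Hspa8. Their levels per kilobase may thus read low beside Hsph1, Dnajb1, Hspb7 and Bag3, which shared none. Of the Cryab windows, 15.0% were shared, all with Hspb2, which overlaps Cryab on the opposite strand. Unique alignment need not lower Cryab there, since the overlap is the same place in the genome. Close ranks between the members are uncertain. In Sham, Hspb7 had 791 ± 38.5 CPM per kilobase (SD, n = 3) and Cryab 751 ± 34.4, which overlapped, at ranks 51 and 53 of 27449 genes with counts. Bag3 (102 ± 6.19), Hspa8 (76.0 ± 5.98) and Hspb1 (73.4 ± 4.75) formed the middle, where Hspa8 and Hspb1 overlapped. Hsp90aa1 (13.5 ± 1.54), Hsph1 (9.20 ± 0.24) and Dnajb1 (4.61 ± 0.245) followed without overlap, and Hspa1a (0.698 ± 0.109) and Hspa1b (0.656 ± 0.0859) were last and overlapped. In DMSO, Hspb1 at 177 ± 82.3 CPM per kilobase (SD, n = 4) stood above Bag3 at 115 ± 13.6, and Dnajb1 at 8.46 ± 2.12 above Hsph1 at 5.78 ± 0.908, a pair that overlapped. Hspa1a moved from rank 13687 in Sham to rank 8603 of 29580 in DMSO and 10802 of 28734 in A10i, and so remained a low transcript per kilobase after its rise. The 10 genes together held 0.362 to 0.38% of all counts in Sham, 0.422 to 0.678% in DMSO and 0.426 to 0.453% in A10i, most of it from Hspb7 and Cryab.

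**Figure D3:**
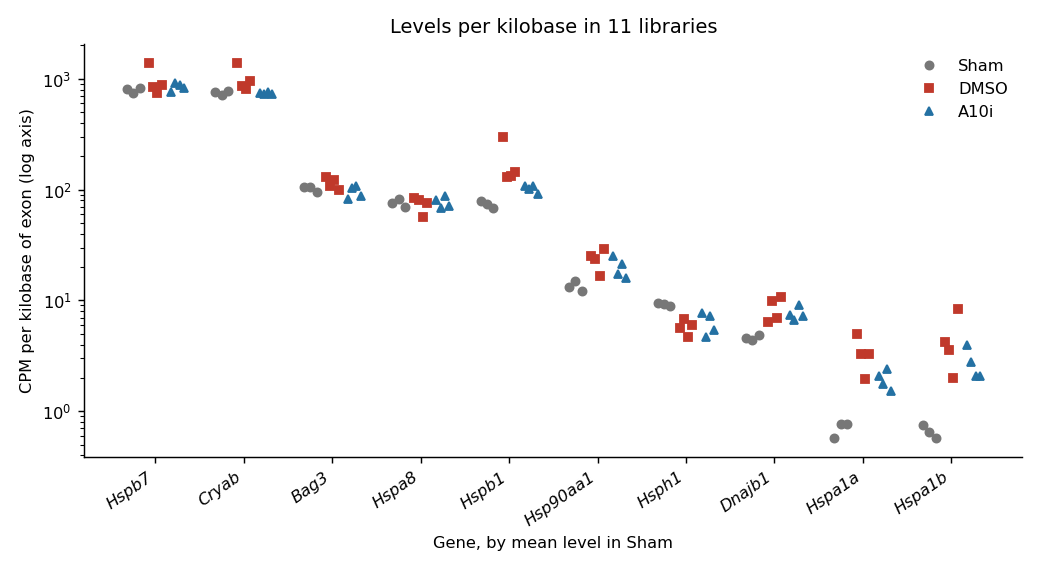
Level of each gene in CPM per kilobase of exon (log axis) in 11 libraries, 1 point per library, ordered by the Sham mean. Hspb7 and Cryab lead in all groups at about the same level, and Hspa1a and Hspa1b are lowest, with Sham means of 0.698 and 0.656 CPM per kilobase.

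A10i was compared with DMSO among the infarcted mice to describe the inhibitor's effect on these genes. None of the 10 members passed at an adjusted p under 0.01, and 0% of the 16792 genes tested were called higher and 0% lower, with a smallest adjusted p of 0.0479. DESeq2 called 106 genes higher and 125 lower, limma-voom called 0, and edgeR without the filter called 18 higher and 25 lower, none of them a member. At an unadjusted p under 0.05, 3 of 10 members were lower in A10i (Hspa1a, Hspb1 and Cryab) and 0 were higher, beside 6.73% lower and 7.1% higher among all genes. The groups did not overlap, with A10i lower, for Hspb1 and Cryab, 2 of 10 members beside 4.4% of all genes. Of the 10 log2 fold changes, 8 were negative, with a median of -0.25 beside 0.0034 over all genes. The same DMSO libraries served the comparison with Sham, so the signs of both comparisons are not independent.

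For Hspa1a the log2 difference between A10i and DMSO was -0.79 (95% interval -1.38 to -0.20, adjusted p = 0.232), and A119 at 7.12 CPM overlapped A128 at 5.77 CPM. With 1 library left out, this difference ran from -0.98 to -0.54 (adjusted p = 0.149 to 0.492). For Hspb1 it was -0.78 (-1.35 to -0.21, adjusted p = 0.229), with 94.5 to 112 CPM in A10i and 134 to 309 CPM in DMSO. Without A105 it was -0.40 (adjusted p = 0.2) and the ranges still did not overlap. Cryab differed by -0.44 (-0.82 to -0.05, adjusted p = 0.298), or by -0.24 without A105 (adjusted p = 0.511), with the lowest DMSO library at 1200 CPM and the highest A10i library at 1130 CPM. These 3 values are the members with an unadjusted p under 0.05, and the adjusted values leave them short of the threshold.

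For Hspa1b the interval was wide, -0.72 (-1.60 to 0.16, adjusted p = 0.46), and the value was -0.25 without A129. The summed Hspa1a and Hspa1b gave -0.75 (-1.41 to -0.10, adjusted p = 0.296). Bag3 differed by -0.27 (-0.54 to 0.004, adjusted p = 0.368). Smaller differences were found for Hsp90aa1, -0.23 (-0.65 to 0.19, adjusted p = 0.637), Hspb7, -0.18 (-0.62 to 0.25, adjusted p = 0.736), and Dnajb1, -0.15 (-0.54 to 0.24, adjusted p = 0.76). Hsph1, at 0.12 (-0.26 to 0.50, adjusted p = 0.801), and Hspa8, at 0.07 (-0.24 to 0.38, adjusted p = 0.874), were the members with a positive value. These intervals do not show that the groups were alike, since most of them reach past a change of 0.5 on the log2 scale.

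Because 5 of the 10 cardiomyocyte markers were lower in DMSO, the members were also set against the mean log2 CPM of the 10 cardiomyocyte genes of each library, as a description without a test. That mean was 12.8 in all Sham libraries, 11.8 to 12.4 in DMSO and 12.1 to 12.5 in A10i. Since the list was lower in both infarcted groups, a gene unchanged in CPM stands higher than Sham on this scale. On this scale, the DMSO mean exceeded the Sham mean by 2.81 for Hspa1a, 3.20 for Hspa1b, 1.82 for Hspb1, 1.49 for Dnajb1 and 1.42 for Hsp90aa1. The muscle chaperones also stood higher in DMSO, by 1.04 for Cryab, 0.89 for Hspb7 and 0.82 for Bag3. Hspa8, whose groups overlapped in CPM, stood 0.59 higher on this scale in DMSO and 0.47 higher in A10i, and did not overlap Sham. The fall of the list alone gives such a rise to a gene unchanged in CPM. Cryab ranged from -2.75 to -2.66 in Sham, -1.95 to -1.38 in DMSO and -2.38 to -1.99 in A10i, without overlap between Sham and either infarcted group. In A10i this gap reflects the fall of the list, since the log2 fold change of Cryab over Sham was -0.01. Hsph1, by contrast, differed by -0.04 in DMSO and -0.13 in A10i, with ranges that overlapped Sham, so its fall in CPM was about as large as that of the cardiomyocyte list. In A10i the same differences from Sham were 1.89 for Hspa1a, 2.42 for Hspa1b, 0.94 for Hspb1, 0.45 for Cryab, 0.56 for Hspb7 and 0.35 for Bag3. The scale cannot say which cells hold a transcript, since several members are expressed in other cells as well.

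**Figure D4:**
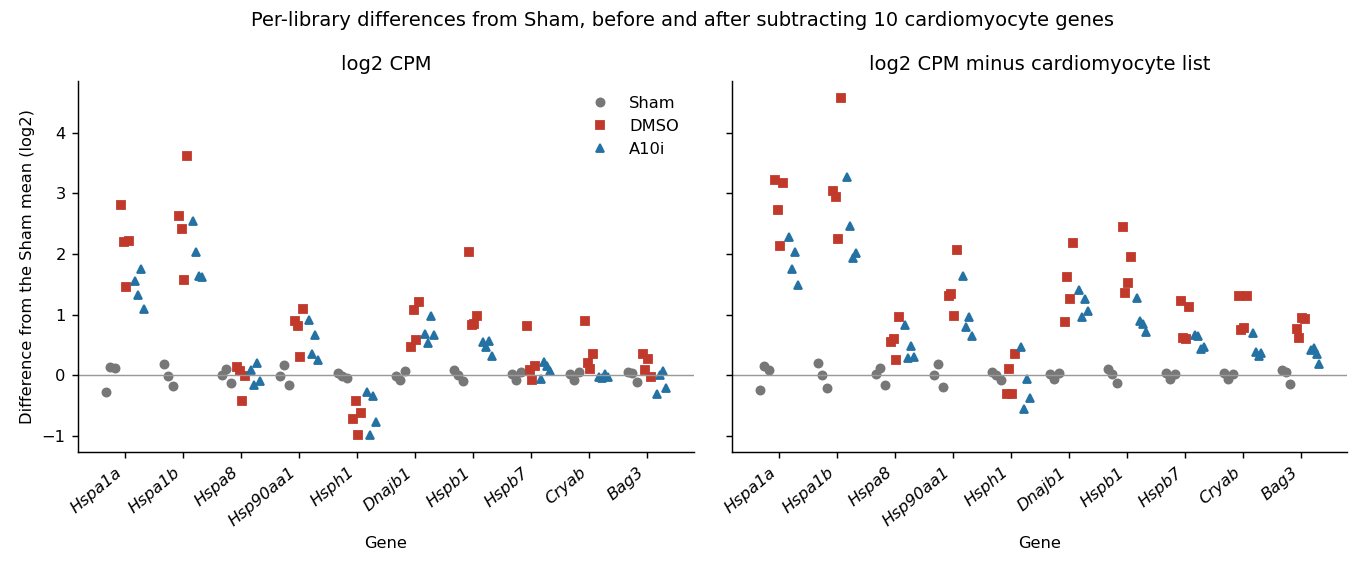
Difference of each library from the Sham mean on the log2 scale, for log2 CPM (left) and for log2 CPM minus the mean of 10 cardiomyocyte genes (right), 1 point per library. Cryab, Hspb7 and Bag3 lie near 0 in A10i on the left and above 0 on the right, and Hsph1 is below 0 on the left and spreads around 0 on the right. The subtracted list is lower in both infarcted groups, so a gene unchanged in CPM lies above 0 on the right.

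Beyond the members, 65 other genes of the chaperone system were examined in 8 lists, and 63 of them passed the filter. In DMSO against Sham 6 were higher (9.52%, beside 12.9% of all genes) and 4 were lower (6.35%, beside 9.6%), and in A10i against Sham 3 were higher (4.76%, beside 13.7%) and 6 were lower (9.52%, beside 9.11%). How the lists stood against all genes turned with the method: with DESeq2, 12 were higher in DMSO (19%, beside 15.7%) and 7 lower, and with library size alone 18 were higher (28.6%, beside 19.5%) and 3 lower. The median log2 fold change of the 63 genes was -0.01 in DMSO and -0.08 in A10i. None was called between A10i and DMSO. The heat shock factor genes Hsf1, Hsf2 and Hsf4 had 0 calls, with a median log2 fold change of -0.25 in DMSO and -0.23 in A10i. Other HSP70 and HSP110 genes had 1 higher and 2 lower of 8 in DMSO. Hspa12a, a distant HSP70, fell by 1.07 on the log2 scale (SE 0.107, adjusted p = 0.000173), from 47.0 ± 3.98 CPM in Sham (SD, n = 3) to 22.5 ± 2.94 CPM in DMSO (SD, n = 4). Hspa1l, a close relative of Hspa1a, rose by 0.92 (SE 0.19, adjusted p = 0.00462), from 7.05 ± 0.423 to 13.5 ± 3.33 CPM. In A10i Hspa12a was at -0.74 (adjusted p = 0.00026) and Hspa1l at 0.64 (adjusted p = 0.00414). Hspa4l, an HSP110 like Hsph1, fell by 0.50 in DMSO (SE 0.0713, adjusted p = 0.000749) and by 0.40 in A10i (SE 0.0684, adjusted p = 0.00172). Hspa2, a relative of HSP70 best known from the testis, was called in A10i, at 0.52 (SE 0.115, adjusted p = 0.0057), and had the same value with more spread in DMSO, 0.52 (SE 0.142, adjusted p = 0.0168).

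Among 10 other cytosolic J-domain genes, Dnajb6 was the single call in DMSO, at 0.44 (SE 0.0704, adjusted p = 0.00128), and Dnaja4 the single call in A10i, at -0.37 (SE 0.0906, adjusted p = 0.00984). Each had the same sign in the other comparison, Dnajb6 at 0.31 in A10i (adjusted p = 0.0105) and Dnaja4 at -0.34 in DMSO (adjusted p = 0.11), and limma-voom called 0 genes of this list in A10i. HSP90 and its cochaperones had 2 higher and 1 lower of 12, among them Ptges3, the cochaperone p23, at 0.40 (SE 0.0806, adjusted p = 0.00408). The immunophilins of this list, which dock steroid receptors to HSP90, moved in opposite directions: Fkbp4 fell by 1.08 in DMSO (SE 0.141, adjusted p = 0.00055), from 402 ± 11.4 to 192 ± 37.3 CPM, and Fkbp5 rose by 0.68 (SE 0.0944, adjusted p = 0.000673), from 72.6 ± 2.4 to 117.2 ± 11.2 CPM. In A10i Fkbp4 was at -0.79 (adjusted p = 0.000866), and Fkbp5 at 0.56 did not pass (adjusted p = 0.0458). Of 11 BAG3 partners and exchange factors, Synpo2, which works with BAG3 in autophagy of filamin, was the single call in DMSO, at -0.53 (SE 0.107, adjusted p = 0.00395), and Bag2 the single call in A10i, at 0.25 (SE 0.062, adjusted p = 0.0099). Synpo2 was at -0.25 in A10i (adjusted p = 0.0411) and Bag2 at 0.34 in DMSO (adjusted p = 0.0656), and the call in A10i was lost with limma-voom and without the filter.

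TRiC, the ring chaperonin that folds actin and tubulin, had 2 of 8 subunits higher in DMSO, Cct5 at 0.44 (SE 0.0925, adjusted p = 0.00477) and Cct2 at 0.39 (SE 0.0907, adjusted p = 0.00838). All 8 log2 fold changes were positive in DMSO and in A10i against Sham, with medians of 0.36 and 0.11, and all 8 were negative in A10i against DMSO, with a median of -0.21 and 0 calls. DESeq2 called 5 of the 8 higher in DMSO and 1 in A10i, and library size alone, which lifted the median of all genes against Sham, called 8 and 2. All 8 stayed negative in A10i against DMSO under RLE factors, library size alone, DESeq2, limma-voom and no filter, which all use the same counts. The same DMSO libraries serve DMSO against Sham and A10i against DMSO. High values in them alone would give opposite signs, so the signs are not independent. None of the 5 small heat shock genes tested beside the members was called, and Hspb9 and Cryaa were too low to test. In DMSO against Sham, DESeq2, library size alone and no filter each called 1 of the 5 higher. The 6 mitochondrial chaperone genes had 0 calls in DMSO (median -0.21) and 2 lower in A10i (median -0.29), Hspd1, which encodes HSP60, at -0.31 (SE 0.0695, adjusted p = 0.00561) and Dnaja3 at -0.49 (SE 0.073, adjusted p = 0.000907). In DMSO Dnaja3 was at -0.51 (SE 0.128, adjusted p = 0.0112) and Hspd1 at -0.19 (SE 0.104, adjusted p = 0.175), and DESeq2 called 1 gene of this list lower there.

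**Figure D5:**
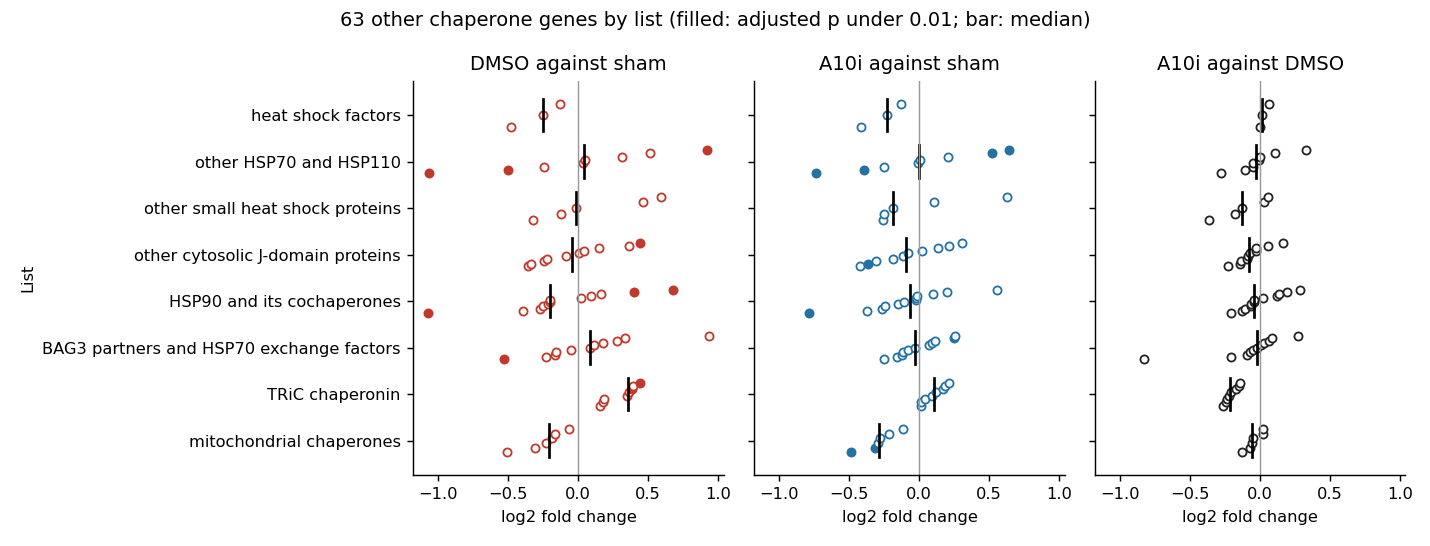
Log2 fold change of 63 other chaperone genes by list (rows) in the 3 comparisons (panels), 1 point per gene, filled where the adjusted p was under 0.01, with the median as a black bar. The TRiC list lies to the right of 0 in both comparisons with Sham and to the left of 0 in A10i against DMSO, and Hspa12a and Fkbp4 are the points furthest to the left in DMSO against Sham.

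The genes most like 3 of the members over the 8 infarcted libraries were listed by Pearson's r of log2 CPM among 16791 genes, as a description. Since they are the highest of that many and the libraries share 2 groups, no p is given. Nearest to Hspa1a were Nmt1 (r = 0.985, Spearman's rho = 0.976), Lrrfip1 (0.963 and 0.976) and Ifrd1 (0.962 and 0.929), and without A105 and A129, the libraries furthest from the median, r was 0.959, 0.927 and 0.875. Nearest to Hsph1 were Atn1 (r = 0.971, rho = 0.929), Sp110 (0.961 and 0.905) and H2-Ob (0.952 and 0.976), with r of 0.977, 0.92 and 0.931 without A116 and A119. Nearest to Cryab were Hsp25-ps1 (r = 0.985, rho = 0.952), Hspb1 (0.985 and 0.952) and 1110004F10Rik (0.98 and 0.905), with r of 0.845, 0.888 and 0.769 without A105 and A129. For Cryab and Hspb1, r was thus lower over the remaining 6 libraries than over all 8. Leaving out the libraries furthest from a gene's median narrows its range, which tends to lower r. The drop therefore does not tell whether the genes were less alike.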

How the data were processed

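The authors isolated poly(A) RNA, made strand-specific libraries and sequenced 100-base read pairs. Per the labels, reads were aligned to mm10 with GSNAP and uniquely aligned reads were counted with featureCounts 2.0.1 (Ensembl 98, per the study's methods). The deposited table holds raw counts for 55421 genes and 92 spike-in rows, which were left out. Unique alignment lowers counts of near-identical genes. Symbols came from GENCODE M21 (55154 genes named), in which the 10 members have the same positions.

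Each comparison was fitted on its own libraries with edgeR 4.0.16 in R 4.3.3 (filterByExpr, TMM, robust quasi-likelihood F-test, two-sided, Benjamini-Hochberg over all genes, threshold 0.01). Levels are CPM on TMM-scaled library sizes of all 11 libraries, and log2 CPM used a prior count of 2. No pair of replicates agreed within sampling noise (chi-square per degree of freedom 4.04 to 60.8 over 15 pairs). It was 4.04 to 4.62 in Sham, 27.4 to 60.8 in DMSO and 9.01 to 43.8 in A10i, so infarcted libraries differed more. Each fit used 1 dispersion per gene for both groups compared. Depth was 21702623 to 29511768 counts per library, and counting error limits Hspa1a and Hspa1b most. Alternatives were RLE factors, library size alone, DESeq2 1.42.0, limma-voom (limma 3.58.1), 2 other filters, 1 joint fit, a threshold of 0.05, summed paralogs, no mitochondrial genes, and each library left out. Those added after seeing the data were summed pseudogenes and the relaxed promoter search.

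The members and lists were chosen with earlier results of these data known. By rule, the text names all 10 members, the 2 called genes of each chaperone list with the largest absolute log2 fold change in DMSO against Sham, and the 3 genes most like Hspa1a, Hsph1 and Cryab. Hspa4l, Hspa2, Dnaja4, Ptges3, Bag2, Hspd1, Dnaja3 and genes that share sequence with a member were named after their values were seen.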

Additional observations from a re-analysis of the deposited data

Results flagged for a closer look

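The level of Hspb1 in DMSO library A105, 309.1 CPM, stood apart from the other 3 DMSO libraries, with a gap to the nearest of them of 0.911 of the group's range, above Dixon's 95% critical value for 4 samples. It was the 1 such value among 22 groups of 4 examined, and chance gives about 1 in 20 groups. Library A105 was also the highest DMSO library for Hspa1a, Hspa8, Hspb7, Cryab and Bag3, without passing that limit there. Its cardiomyocyte marker mean of 12.4 was the highest of the DMSO group. Its fibroblast markers summed to 1278 CPM, beside 1949 to 3953 CPM in the other DMSO libraries, and its cycling markers to 13.4 CPM, beside 56.8 to 145.8 CPM there and 13.4 to 30.02 CPM in Sham. Hemoglobin transcripts held 0.348% of its counts, beside 0.0237 to 0.105% in the other DMSO libraries. The part of these differences in the values of A105 was not tested.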

How the results depend on the processing

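Over all alternatives, 500 log2 fold changes of the members kept their sign and side of the threshold, 27 fell short of it, 6 went past it and 11 changed sign. The 500 include values with no call to lose, among them those of A10i against DMSO. In DMSO against Sham, calls were lost in 7 of 18 alternatives for Hspb1, 6 of 18 for Hsp90aa1 and 5 of 17 for Hspa1b. For Dnajb1 it was 4 of 18, for Hsph1 3 of 18 and for Hspa1a 0 of 17. In DMSO against Sham, the members called higher were 5, and 3 without the filter on low counts (Hspa1a, Hsp90aa1 and Dnajb1). With 1 library left out they were 1 to 4, with 1 (Hspa1a) without S1, S2 or S3, and 3 without A127 (Hspa1a, Hspa1b and Hspb1) or A129 (Hspa1a, Hspa1b and Dnajb1). The count of members called lower was 1, and 0 with library size alone, and 0 to 1 with 1 library left out, Hsph1 being lost without S1 or S2. In A10i against Sham the count lower was 0, and 1 (Hsph1) with DESeq2 and at a threshold of 0.05. Both counts of A10i against DMSO stayed 0 in every alternative run. Library size alone moved the median log2 fold change of all genes to 0.21 in DMSO and 0.18 in A10i against Sham, and the calls of all genes to 3330 higher and 708 lower in DMSO (2215 and 1643 with TMM) and 3436 higher and 577 lower in A10i (2333 and 1546). There the signs of Hspa8 in DMSO (0.15), and of Cryab (0.17) and Bag3 (0.085) in A10i, turned positive, each below that shift. With 1 library left out, the sign turned for Hspa8 in DMSO (-0.1287 to 0.063) and in A10i (-0.0396 to 0.0791), for Cryab in A10i (-0.0484 to 0.013), and, in A10i against DMSO, for Hspb7 (-0.2852 to 0.0468) and Hspa8 (-0.0426 to 0.1306). Beyond the smaller number of samples or genes that an alternative leaves, the cause of these changes was not tested. No paired analysis was possible because the groups share no replicate numbers. With 3 Sham libraries, Sham rests on few samples, and 39 to 61 counts of Hspa1a limit its level there.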
